A study of Drosophila melanogaster with 3 samples.

Results

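The Notch pathway genes examined here are the receptor gene N, the ligand gene Ser, the receptor modifier fng, the protease genes kuz, Psn and nct, the ligand regulator neur, and the nuclear effectors Su(H), H and mam. Members were the probe sets to which the platform annotation gave exactly 1 gene symbol among these 10. The rule found 8 probe sets of 18952 in the table, and they represented 6 genes of 11982 named ones: fng, neur, kuz, Psn, H and mam. N, Ser, Su(H) and nct were not analysed here. The receptor and the Ser ligand of the pathway are therefore not described by any value below.

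The samples were wings of Oregon R pupae, a wild-type laboratory strain of Drosophila melanogaster, at about 80 h after puparium formation (APF), the late pupal period in which the adult cuticle forms and darkens. The pupae were staged visually, by how far the wing had darkened, and the age is thus an estimate. Flies were kept at 25 C, RNA was taken from batches of 40 flies, and 3 biological replicates were hybridised to 1 Affymetrix array each. All arrays belong to 1 group with no treatment, mutant or second time point, so the design holds no contrast between conditions, and the data show only which genes gave signal at this stage and how well the replicates matched.

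In Notch signalling a ligand on one cell binds the Notch receptor on its neighbour, and the receptor is then cut, first outside the membrane by an ADAM protease and then inside it by gamma-secretase. The freed intracellular domain enters the nucleus, where with the DNA-binding protein Su(H) and the co-activator Mastermind it switches on target genes, among them those of the Enhancer of split complex. In the developing fly wing the pathway sets up the wing margin, confines the veins and separates cell fates within sensory organs.

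Signals are given on the linear scale of the deposited values. The measure of presence was a reference level on each array, the 95th percentile of 87 genes whose products belong to other organs: 56 odorant receptors and 31 eggshell or accessory gland proteins. This level was 109.9, 109.6 and 96.5 on replicates 1, 2 and 3. A probe set was called over the reference where limma's one-sided moderated test found its log2 signal to exceed that array's reference level, with a Benjamini-Hochberg adjusted p below 0.05 over all 18769 fly probe sets. Probes differ in how well they hybridise, so a higher signal of 1 probe set than of another is not a higher transcript level. The number of arrays limits the precision.

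All 6 measured member genes had a probe set over the reference, where 44.3% of the 11982 named genes did. Of the 8 member probe sets 7 were called, against 34.2% of all fly probe sets, and the exception was mam 1624960_at. The median difference of the member probe sets from the reference level was 2.42 on the log2 scale, beside -0.88 over all fly probe sets. RNA came from whole wings, so a low signal from few cells and a low signal from little RNA per cell cannot be told apart.

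**Figure D1:**
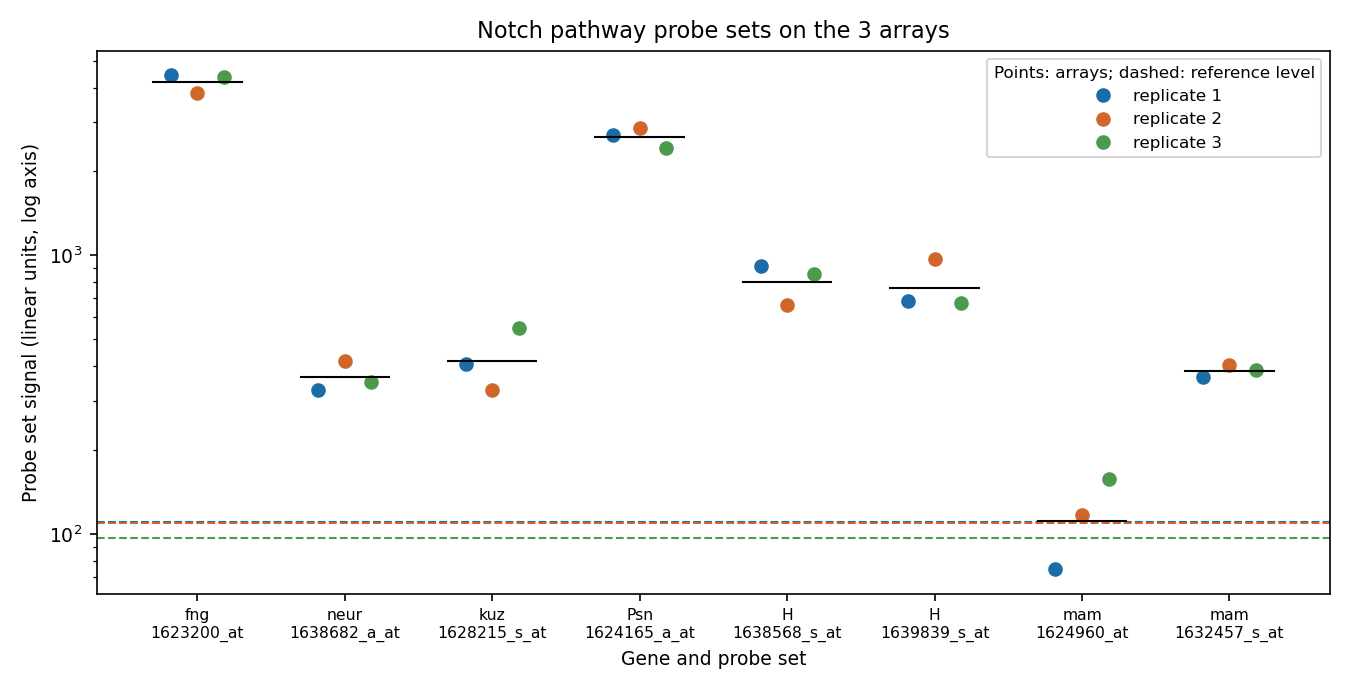
Signal of each Notch pathway probe set on the 3 arrays (log axis, linear signal units), with points for arrays, a black bar at the mean of the log2 values and dashed lines at the reference level of each array (the lines of replicates 1 and 2 nearly coincide). Of the 8 probe sets, 7 lay over the reference on every array, and mam 1624960_at straddled it.

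The receptor modifier fng encodes the Fringe glycosyltransferase, which lengthens the O-fucose sugars on the extracellular repeats of Notch and so changes which ligand the receptor answers to. Its probe set 1623200_at gave signals of 4423, 3820.2 and 4376 on replicates 1, 2 and 3. Every array was far over its reference level, and replicate 2 was the lowest. The mean log2 signal was 12.04 ± 0.12 (SD, n = 3), which lay 5.32 over the reference (95% interval 4.84 to 5.80; limma adjusted p = 0.000188).

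Psn encodes presenilin, the catalytic subunit of gamma-secretase. Its probe set 1624165_a_at read 2700.5, 2857 and 2424 on the 3 arrays. The highest array was 1.18 times the lowest, a ratio that was smaller for fng (1.16) and mam 1632457_s_at (1.10). The lowest signal was on replicate 3, where the reference level was lowest too. The difference from the reference was 4.66 (95% interval 4.24 to 5.08; limma adjusted p = 0.000188), and by array it was 4.62, 4.70 and 4.65, the narrowest range of the 8 probe sets.

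The ADAM metalloprotease gene kuz, whose product makes the cut outside the membrane, gave 405.4, 327.5 and 545.9 with probe set 1628215_s_at. Replicate 3 was the highest and 1.67 times replicate 2. All arrays lay over the reference level, by 1.88, 1.58 and 2.50 on the log2 scale, and the mean difference was 1.99 (95% interval 1.25 to 2.72; limma adjusted p = 0.00423). The suffix _s_at marks probes shared by several transcripts, which need not be of 1 gene.

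neur encodes Neuralized, a ubiquitin ligase that drives the endocytosis of Delta in the signal-sending cell and is best known from sensory organ precursors. Its probe set 1638682_a_at read 329.4, 418.9 and 351.7. The 3 arrays lay close together, with replicate 2 the highest. The difference from the reference was 1.79 (95% interval 1.31 to 2.28; limma adjusted p = 0.00169). With the 99th percentile of the same genes as reference, neur was 0.75 over it (adjusted p = 0.0523) and kuz 0.94 (adjusted p = 0.0516), and neither was called.

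Of 6 sensory organ markers 33.3% were over the reference, beside 44.3% of named genes. Of the 6, nompA and pros were over it, and sv, sens, Poxn and ase were not called. Their differences from the reference, each at the gene's brightest probe set, ran from -3.96 (sens, a defining factor of the precursors, at 2.0, 25.0 and 6.3) to 3.10 (nompA). The part of sensory organ cells in the neur signal was not tested.

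H encodes Hairless, which binds Su(H) and brings in the co-repressors Groucho and CtBP. It was measured by 2 probe sets, both of the _s_at kind. Probe set 1638568_s_at gave 913.6, 663.8 and 857.6, and 1639839_s_at gave 686.0, 970.6 and 671.7. Replicate 2 was the lowest array for the former and the highest for the latter, so the probe sets of 1 gene varied in opposite ways over the same RNA samples. Their mean differences from the reference were 2.94 (95% interval 2.37 to 3.50; limma adjusted p = 0.000705) and 2.86 (95% interval 2.33 to 3.40; adjusted p = 0.000652).

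mam encodes Mastermind, the co-activator that joins Su(H) and the Notch intracellular domain. Its probe set 1632457_s_at read 365.6, 403.3 and 386.8, and every array was over the reference. The difference was 1.87 (95% interval 1.42 to 2.32; limma adjusted p = 0.00126). The other probe set, 1624960_at, read 74.8, 116.9 and 157.3, which was under the reference level on replicate 1, close to it on replicate 2 and over it on replicate 3. Its difference was 0.08 (95% interval -0.83 to 0.99; adjusted p = 1.0, unadjusted p = 0.404), so it was not distinguishable from the reference. The call for mam therefore came from the _s_at probe set alone. Among all 1094 named genes with several probe sets, calls differed between probe sets for 407 (37.2%).

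**Figure D2:**
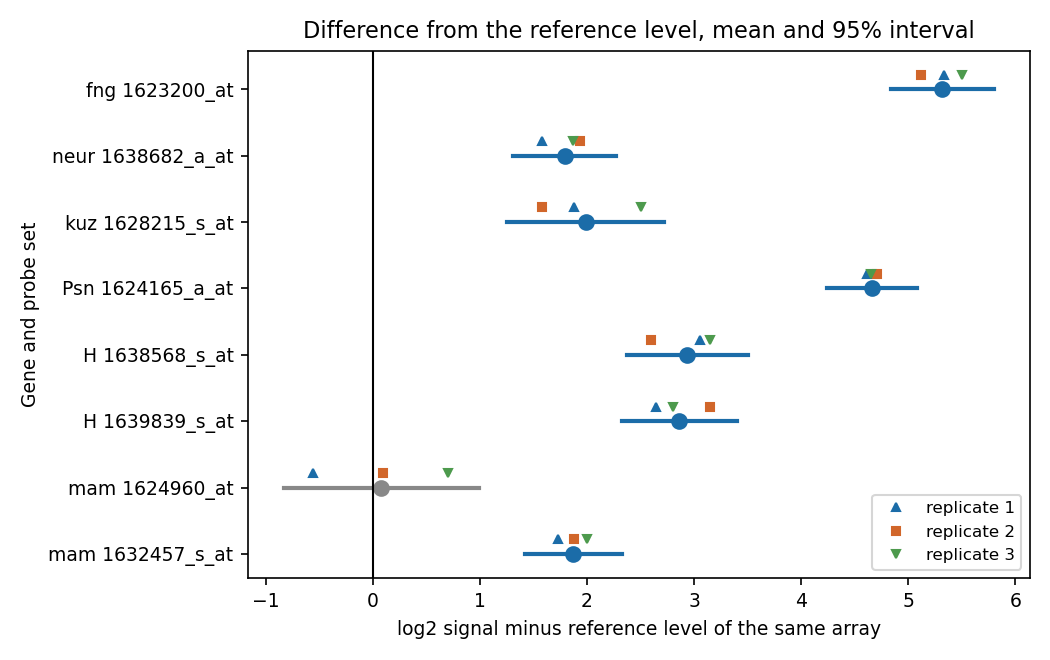
Difference of each probe set from the reference level of its array on the log2 scale, as the mean over 3 arrays (large point), the 95% interval of the limma fit (line) and the value on each array (small symbols above the line). Blue marks probe sets called over the reference and grey the 1 that was not; the interval of mam 1624960_at runs from -0.83 to 0.99.

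The spread between replicates differed more among the members than their calls did. The SD of log2 signal ran from 0.07 for mam 1632457_s_at to 0.54 for mam 1624960_at, with a median of 0.21. The median was 0.16 over called fly probe sets and 0.44 over all fly probe sets. The SDs of fng (0.12), Psn (0.12) and neur (0.18) were near the medians of probe sets with like signals, which fell from 0.19 at mean log2 signals of 8 to 9 to 0.12 at 12 to 13. Those of kuz (0.37) and of both H probe sets (0.24 and 0.30) lay above the third quartile of probe sets with like signals, 0.28 and 0.225. The median SD of the 8 probe sets over the 2 arrays kept was 0.07 without replicate 2, 0.22 without replicate 1 and 0.23 without replicate 3. The largest gap of any member probe set was nonetheless between replicates 1 and 3, at 1.07 on the log2 scale. Across all fly probe sets the array pairs correlated about alike, with Pearson r of 0.914 (1 and 2), 0.918 (1 and 3) and 0.913 (2 and 3). No array was high or low for all members, since 2, 4 and 2 probe sets were highest and 3, 3 and 2 were lowest on replicates 1, 2 and 3.

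**Figure D3:**
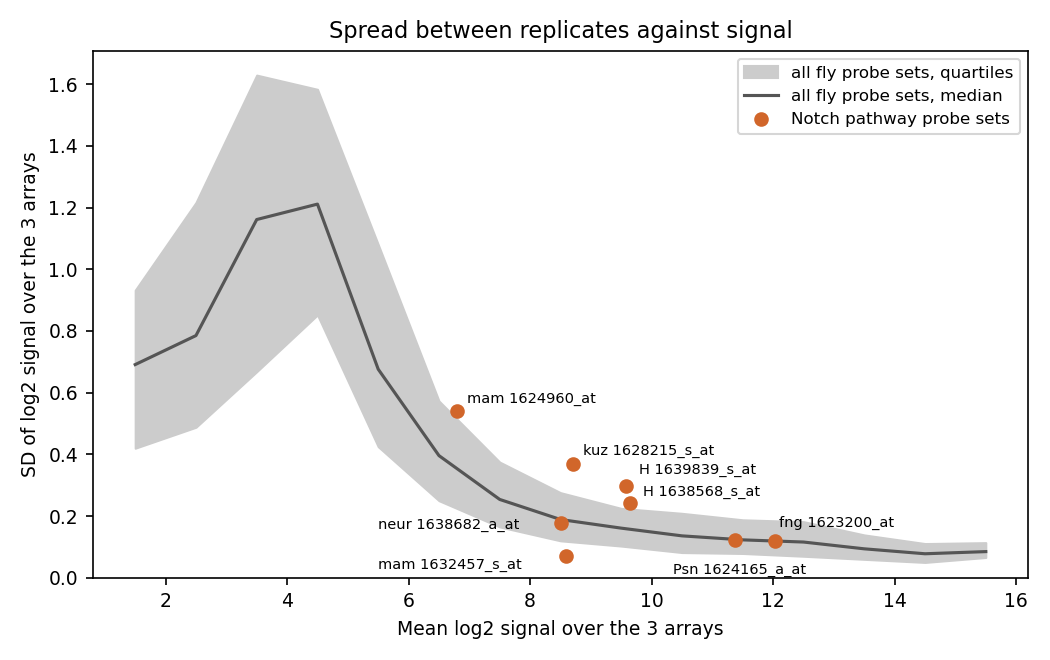
SD of the log2 signal over the 3 arrays against its mean for the 8 Notch pathway probe sets (orange), with the median (line) and quartiles (band) of all fly probe sets in bins of 1 log2 unit that hold at least 20 probe sets. kuz and both H probe sets sit above the band, and mam 1632457_s_at sits below it. The band joins the bin centres, so mam 1624960_at (0.54) plots just above its edge, though under the third quartile of its own bin (0.573).

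Of 57 further pathway genes measured, out of 63 listed by role, 37 had a probe set over the reference (64.9%, beside 44.3% of named genes). Their median difference, each at its brightest probe set, was 2.12, beside 0.10 over all named genes. By role, most genes were over the reference in the lists for receptor maturation, for ligand endocytosis with receptor proteolysis, and for receptor trafficking. Within the list that holds receptor proteolysis, pen-2 was called, and the protease genes Tace and Kul were not. Most of the genes listed as targets were not called. The lists were not compared by a test, and the activity of the pathway was not measured.

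Delta, the other Notch ligand, was over the reference with both probe sets. Probe set 1634398_a_at read 309.2, 330.5 and 363.8 and lay 1.67 over it. Probe set 1634659_at read 893.3, 1134 and 810.3 and lay 3.15 over it (95% interval 2.67 to 3.64; limma adjusted p = 0.000418). The ligand-like gene wry read 37.3, 21.0 and 4.1 and was not called.

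Of 7 measured genes for receptor maturation and sugar modification 6 (85.7%, beside 44.3% of named genes) were over the reference. They included the furin protease gene Fur2 (5.68 over the reference), the GDP-fucose transporter gene Efr (5.47), the oxidoreductase gene Ero1L (2.64) and the xylosyltransferase gene shams (0.99). The O-fucosyltransferase gene O-fut1, whose product adds the sugar that Fringe extends, lay only 0.60 over the reference (limma adjusted p = 0.0362), and this call was lost when any replicate was left out (adjusted p from 0.114 to 0.136). The O-glucosyltransferase gene rumi read 154.6, 102.9 and 81.8 and was not called (difference 0.05); O-fut1 and rumi were named after their values were seen. When the reference was taken from the eggshell and accessory gland genes only, or a minimum of 2-fold over it was asked for, 3 of the 7 were called.

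Of 6 genes for ligand endocytosis and receptor proteolysis 4 (66.7%, beside 44.3% of named genes) were over the reference. These were the epsin gene lqf (5.13), the auxilin gene aux (4.69), mib2, a relative of the ligand ubiquitin ligase gene mib1 (3.76), and pen-2, a gamma-secretase subunit gene like Psn (3.19). The probe sets of lqf and aux are of the _s_at kind, and without such probe sets 2 of 4 genes were called. The other ADAM protease genes on the list, Tace and Kul, were not called, at 21.4, 22.1 and 42.6 and at 15.2, 46.9 and 12.2.

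Of 12 genes for receptor trafficking and turnover 11 (91.7%, beside 44.3% of named genes) were over the reference. shrb, an ESCRT-III subunit gene, lay 6.64 over it, and numb, whose product inhibits Notch in 1 daughter of a dividing precursor, lay 6.15 over it. The Numb-associated kinase gene Nak followed at 4.90 and the ESCRT-I gene TSG101 at 3.74. The exception was spdo, which acts with Numb in asymmetric divisions and read 193.4, 145.9 and 109.1 (difference 0.47; limma adjusted p = 0.123). The gene spdo was named because it was the single exception.

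The neurogenic membrane protein gene pcx lay 2.98 over the reference and amx 1.24, whereas bib was not called (-1.87). The amx call was lost without replicate 2 (0.97, limma adjusted p = 0.0623) and without replicate 3 (1.27, adjusted p = 0.0934). It was also lost with the 99th percentile (0.19, adjusted p = 0.953), with the eggshell and accessory gland genes only (0.52, adjusted p = 0.237) and at the 2-fold minimum (adjusted p = 0.705). Of 10 nuclear cofactor genes 9 were over the reference, where 44.3% of the 11982 named genes were. The 9 included the Mediator subunit gene skd (4.10) and the co-repressor genes CtBP (3.56) and gro (3.46), whose products Hairless recruits. The acetyltransferase gene nej was over the reference by 3.02 with uneven replicates of 1519, 499.7 and 816.7. insv, which encodes another Su(H)-binding co-repressor, was not called (-0.82).

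Of 14 measured genes of the Enhancer of split and Bearded complexes and Hey, listed together here as targets, 3 were over the reference. This was 21.4%, beside 44.3% of named genes over the reference. E(spl)m3-HLH read 1036, 1126 and 1088 and lay 3.36 over it (95% interval 2.92 to 3.81; limma adjusted p = 0.000312). E(spl)mbeta-HLH read 1105, 594.9 and 768.3 and lay 2.92 over it (adjusted p = 0.00131). E(spl)m2-BFM read 610.3, 655.6 and 652.0 and lay 2.60 over it (adjusted p = 0.000561). The other 11 were not called, and 0 of them had an unadjusted limma p below 0.05. They include the Bearded complex genes Brd, Tom, Ocho and BobA, and whether each listed gene is a direct target was not tested. Of the 11, E(spl)m6-BFM (-3.81), E(spl)m5-HLH (-3.02), Ocho (-2.34) and E(spl)m4-BFM (-1.78) lay farthest below the reference. Of the HLH repressor genes of the Enhancer of split complex 2 of 5 were called, and of the Bearded family genes 1 of 8.

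Among the wing margin targets the selector gene vg lay 2.90 over the reference with probe set 1623484_at, and dpn read 10.8, 117.5 and 47.1 and was not called. The margin gene ct was not called with any of its 3 probe sets, and its brightest lay at 0.46 (limma adjusted p = 0.117).

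**Figure D4:**
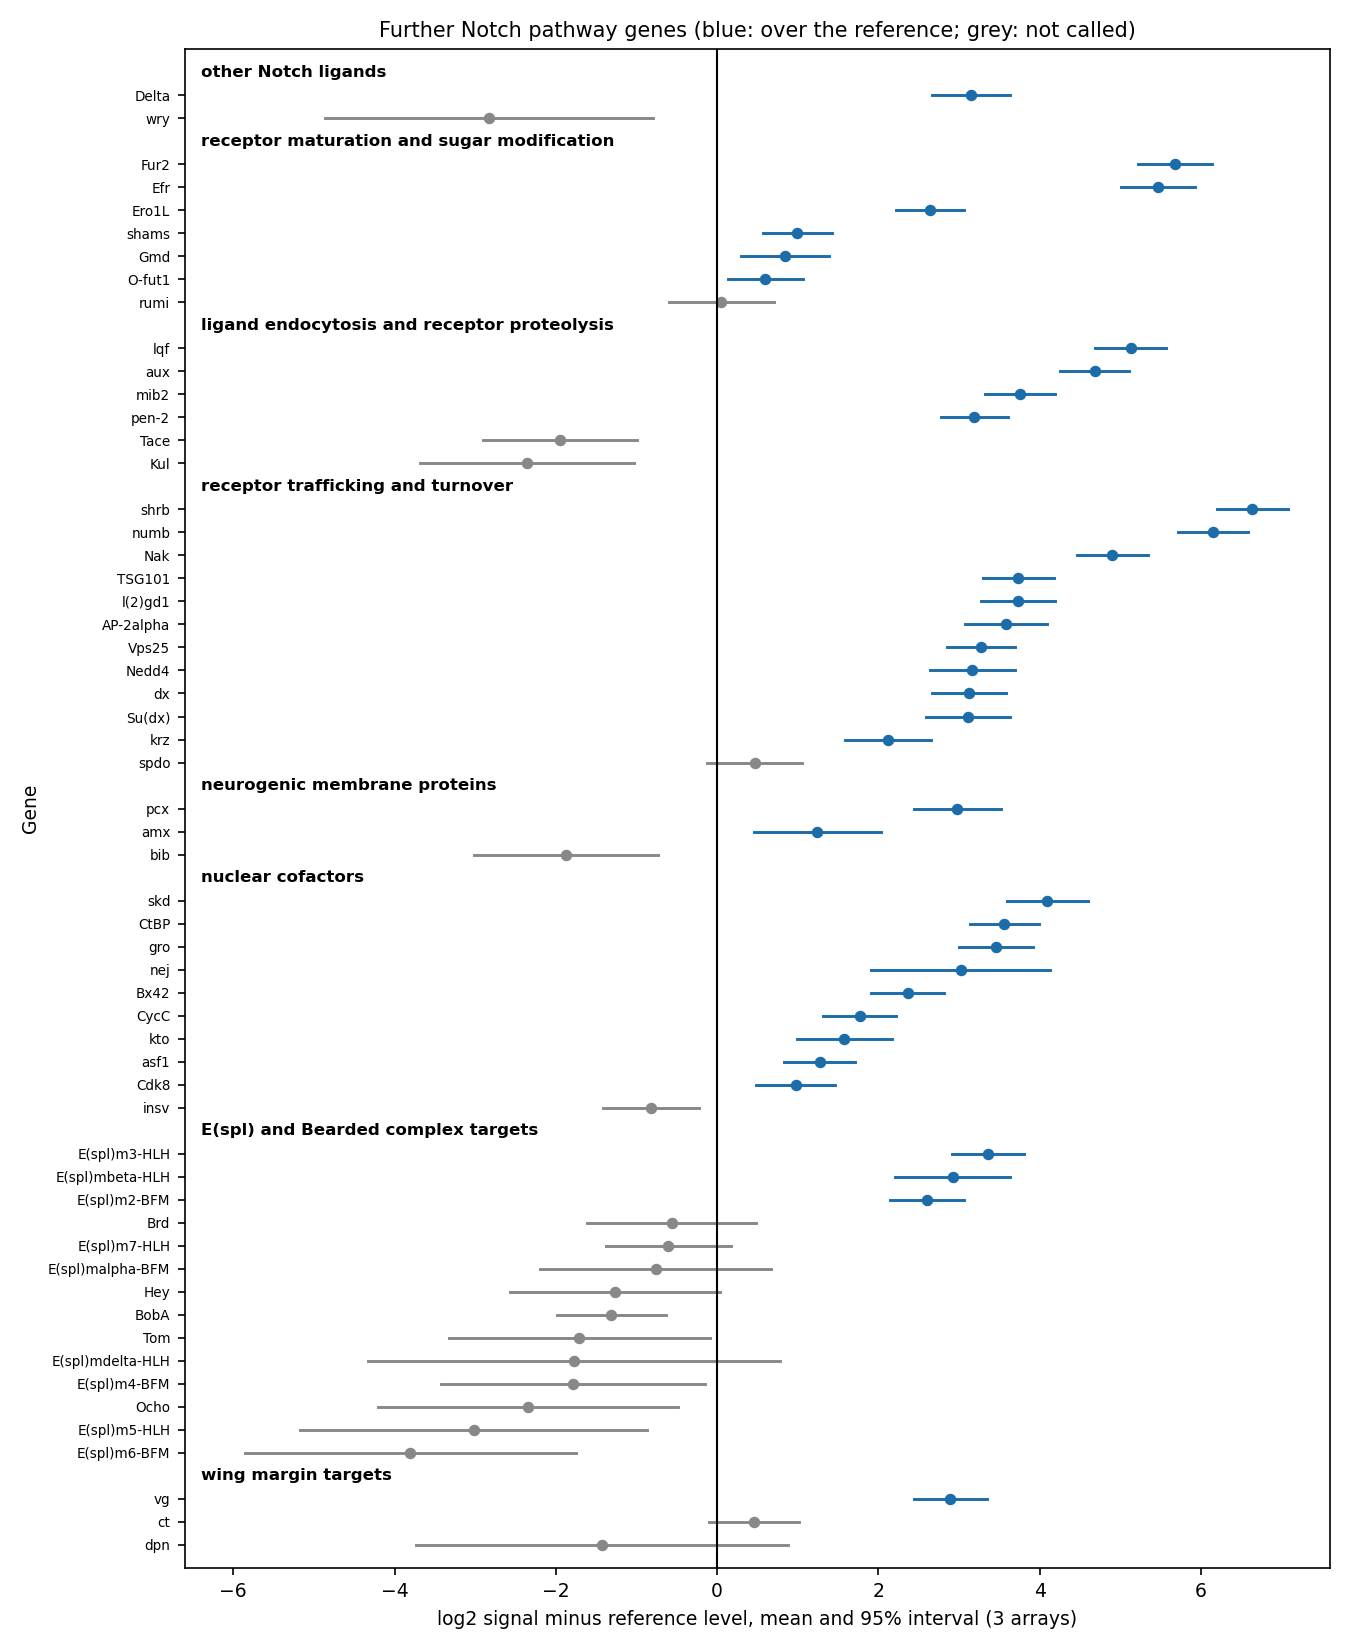
Difference from the reference level on the log2 scale for 57 further Notch pathway genes by role, each at its probe set with the highest mean, with the 95% interval over 3 arrays. Blue genes were called over the reference and grey ones were not; 11 of 12 trafficking genes and 3 of 14 Enhancer of split, Bearded and Hey genes are blue.

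The tissue label was checked against marker genes. All 6 wing epithelium markers (vg, ap, nub, salm, bs and Dll) had a probe set over the reference, where 44.3% of all named genes did. Of their dimmer probe sets, ap 1639498_a_at (2.24) and Dll 1636088_at (1.96) were called. The others, vg 1641470_s_at (-0.004), nub 1626836_at (-0.058) and 1630736_at (-0.858) and Dll 1625771_at (-0.095), were not called over the reference. Markers of other cells were over it in part: 1 of 5 for neurons, 3 of 4 for glia, 3 of 5 for muscle, 2 of 6 for haemocytes, 1 of 2 for trachea and 3 of 5 for fat body. Over it were Appl (1.81, neuron), moody (4.32) and nrv2 (4.85, both glia), sls (6.60, muscle), crq (5.18, haemocyte), Gasp (6.88, trachea) and apolpp (2.64, fat body). Also over it were repo (0.79, glia), Act88F (2.22) and fln (1.46, both muscle) and NimC1 (0.96, haemocyte). Lsp2 (2.16) and Fbp1 (0.998), both of fat body, were over it too. Not called were elav, nSyb, brp and para (neuron), gcm (glia), and up and TpnC4 (muscle). Hml, He, srp and eater (haemocyte), btl (trachea), and Yp1 and Yp2 (fat body) were not called either. On so few markers per list, the counts did not tell which of these cells were present. The part of these cells in the Notch pathway signals was not tested.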

How the data were processed

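The values are probe set intensities on a linear scale, as deposited by the authors for 3 arrays. The submitters' processing notes name both MAS5 and RMA without saying which step each served. Per the deposited values, each array had a trimmed mean of 500.0 after removal of 2% at each end, which is how MAS5 scales signals. The genome build is not given in the sources used here, so no coordinates are printed. Replicates 1, 2 and 3 had median signals of 67.6, 73.3 and 59.7.

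Signals were taken to log2 with no further normalization. The platform annotation gave 1 symbol to 13647 of 18769 fly probe sets, several to 402 and none to 4720; 183 control probe sets were left out. Of the single-symbol probe sets 13544 had an entrez identifier in the RefSeq gene table, and 0 had another symbol there. Delta, l(2)gd1 and asf1 stand for Dl, lgd and Asf1 of the lists. Reference genes entered at their probe set with the highest mean. limma 3.58.1 in R 4.3.3 (lmFit, eBayes; prior 1.48 degrees of freedom, SD 0.375) was fitted to all fly probe sets and tested on simulated data. The test takes the reference level as known. Of the 87 reference genes 1 was called, the eggshell gene Fcp3C at 1.27 over the level. Tables and figures used Python 3.11.15, pandas 2.3.3, numpy 2.4.6 and matplotlib 3.10.9.

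All member probe sets are named. Of each further list, up to 4 called genes farthest over and up to 4 genes farthest below the reference are named, with exceptions stated. The members and lists were chosen with earlier results of these data known. No genes were ranked by likeness to a member, since replicates of 1 group hold no pattern. Alternatives were 4 other reference levels, a 2-fold minimum, quantile normalization, log2(signal + 16), a filter on dim probe sets, an intensity trend, a call without a model, removal of _s_at and _x_at probe sets, and leaving out each replicate.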

Additional observations from a re-analysis of the deposited data

How the results depend on the processing

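Of 108 values of the member probe sets under 14 alternative settings, 106 kept their side of the threshold, and the exceptions were neur and kuz with the 99th percentile as reference, where 5 of 8 probe sets and 4 of 6 genes were called. The uncalled mam 1624960_at turned below the reference with the 99th percentile (-0.97), with eggshell and accessory gland genes only (-0.64) and without replicate 3 (-0.23); all other member values kept their direction. Without _s_at and _x_at probe sets 4 member probe sets of 4 genes remained to be tested, and 3 probe sets and 3 genes were called, since those of H and kuz and the called one of mam were removed. Leaving out a replicate changed the call of no member; the median SD then ran from 0.066 to 0.231. The count of further pathway genes was 29 of 50 without _s_at and _x_at probe sets and 39 of 48 with the dim filter. Otherwise it ran from 30 (99th percentile, and the 2-fold minimum) to 39 (call without a model) of 57, and from 33 to 35 when a replicate was left out. The share of all named genes called was computed for the main setting only. Counts of genes under the other settings, here and above, therefore have no such share beside them. The dim filter removes probe sets under the median of every array before the test. Among the further genes named, called values turned below the reference for shams (-0.053) and O-fut1 (-0.45) with the 99th percentile and for O-fut1 (-0.13) with the reference limited to eggshell and accessory gland genes. Both settings raise the reference level. The genes ct and spdo were called with the dim filter, which tests fewer probe sets, and by the call without a model, and spdo also with the 90th percentile and with odorant receptors alone. No paired analysis was possible because all samples form 1 group. Signals near the reference level, such as those of mam 1624960_at, are limited by the large spread of dim probe sets.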

Other observations

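Of the 7 further pathway genes measured by several probe sets, 2 had all of them over the reference (Delta and skd), 1 had none (ct), and 4 had probe sets whose calls differed. For nej, the fly CBP, probe set 1637135_at read 152.7, 84.8 and 118.7 and was not called, whereas 1622925_at was. For vg, probe set 1641470_s_at read 65.8, 248.1 and 70.6, with replicate 2 high, and was not called. The other 2 were CtBP, where 1623869_at read 36.9, 29.6 and 114.2, and Nedd4, where 1638288_at read 4.4, 24.0 and 2.2. These genes were chosen for their differing calls after the values were seen.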
